A study of Mus musculus with 4 samples.

Results

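The cluster of miR-322, miR-503 and their neighbours is a run of microRNA (miRNA) hairpins on the mouse X chromosome that are thought to be cut from a shared primary transcript, the lncRNA called H19X. The 7 members were taken by name from the deposited lists: miR-322-5p, miR-322-3p, miR-503-5p, miR-351-5p, miR-542-3p, miR-450a-5p and miR-450b-5p. They are 7 of the 1152 entries listed in each library and 7 of the 479 entries with a mean of at least 1 CPM (counts per 1000000) that were tested, so none was lost to that filter. miR-450b-5p was below 1 CPM in both Sham libraries and passed only through its CKD values.

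The libraries hold small RNA (18 to 30 nucleotides) of aortas from 12-week wild type C57BL/6 mice, with 2 libraries labelled Sham and 2 labelled CKD (chronic kidney disease), and each pools 4 samples. In the model, parts of the left kidney and then, 1 week later, the whole right kidney were taken out, and a 2% phosphate diet with 0.45% NaCl in the water followed for 4 weeks. The labels word this protocol identically for Sham and CKD, so how Sham mice were treated remains unknown here. Nothing in the labels says whether the 2 pools of a group came from different animals, so the spread within a group may be technical. Each limma p-value rests on that spread, combined with the spread of the other entries in the fit, and so depends on which entries were tested.

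A hairpin is cut into a pair of arms, named 5p and 3p, and an arm that is loaded into an Argonaute protein finds its target mRNAs mainly through its seed, bases 2 to 8. Members of this cluster are induced in differentiating skeletal muscle, slow the cell cycle by repressing cyclins and Cdc25a, and in blood vessels have been studied in smooth muscle phenotype and in endothelial growth. miR-322 is the mouse form of human miR-424.

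The mature sequences of the 7 members show which of them can share targets and which reads can be told apart. They are given 5′ to 3′ from RefSeq (GRCm38.p6), with the seed in capitals.
miR-322-5p: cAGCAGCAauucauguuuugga
miR-322-3p: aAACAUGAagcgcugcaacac
miR-503-5p: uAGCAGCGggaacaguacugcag
miR-351-5p: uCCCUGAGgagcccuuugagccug
miR-542-3p: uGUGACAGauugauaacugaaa
miR-450a-5p: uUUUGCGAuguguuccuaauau
miR-450b-5p: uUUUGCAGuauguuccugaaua

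All 7 members matched a RefSeq entry, and no 2 of them carry the same seed. miR-322-5p and miR-503-5p differ at 1 base of the seed, and at 11 of 22 bases when aligned from their first base without gaps. The pair miR-450a-5p and miR-450b-5p share their first 6 bases, differ at 2 bases of the seed and at 7 of 22 bases over their length. Among the arms that are not members, miR-450a-1-3p and miR-450b-3p share their first 18 bases and the whole seed, so their reads are the hardest to separate. The rule for reads that match several miRNAs was not stated in the labels.

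Seed matches outside the cluster exist for only 2 of the 7 members among the 900 listed entries that have a sequence in the table. The seed of miR-322-5p is that of the miR-15/16 family, whose most abundant listed entries here were miR-16-5p, miR-195a-5p, miR-497a-5p and miR-15b-5p. The seed of miR-351-5p is that of miR-125b-5p and miR-125a-5p. The most abundant entry of each seed is shown.
miR-16-5p: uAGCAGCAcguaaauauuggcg
miR-125b-5p: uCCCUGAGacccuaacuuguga

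In GRCm38 the 7 hairpins lie on the minus strand of chromosome X within 6353 bases, in 2 groups. Mir322 (X, 53054255 to 53054349), Mir503 (X, 53053984 to 53054054) and Mir351 (X, 53053255 to 53053353) span 1095 bases. After a gap of 3767 bases follow Mir542 (X, 53049403 to 53049487), Mir450-2 (X, 53048299 to 53048367), Mir450-1 (X, 53048154 to 53048244) and Mir450b (X, 53047997 to 53048078), which span 1491 bases. Mir450-1 and Mir450-2 both give miR-450a-5p, with the same mature sequence. RefSeq places the first group inside the lncRNA gene C430049B03Rik (X, 53053112 to 53057190), whereas GENCODE M21 ends that gene at 53055046, before Mir322. No gene other than the hairpins themselves overlaps the second group in either annotation.

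**Figure D1:**
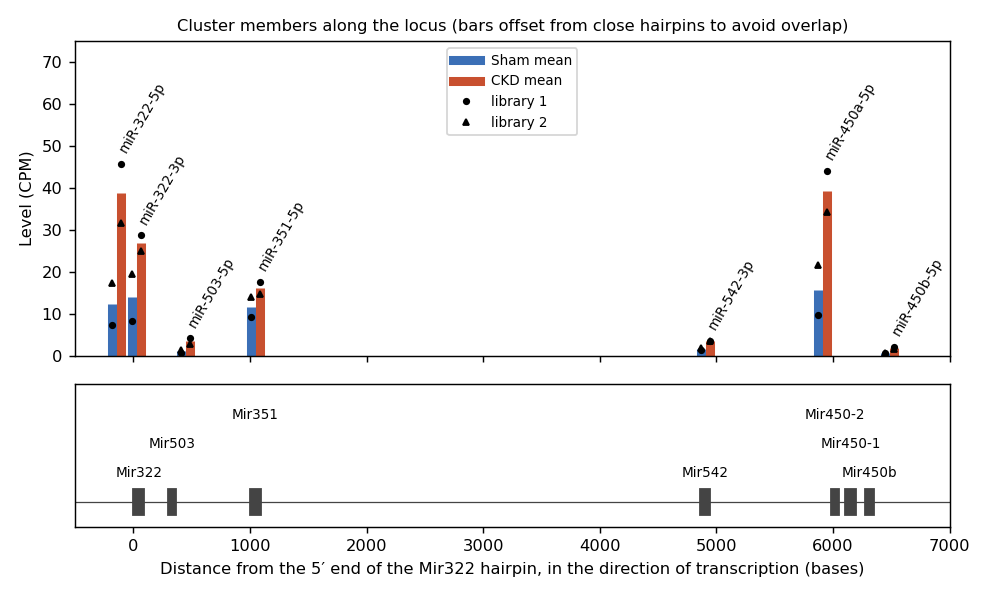
Lower panel: the 7 hairpins to scale, by distance in bases from the 5′ end of Mir322 in the direction of transcription. Upper panel: the mean level in CPM of each member in Sham (blue) and CKD (red), with both libraries as black symbols; the high members miR-322-5p (38.7 CPM in CKD) and miR-450a-5p (39.2 CPM in CKD) come from opposite ends of the cluster, next to members under 5 CPM.

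The cluster was a small part of the aortic miRNA pool. Its 7 members summed to 37.3 and 76.5 CPM in Sham, against 147 and 114 CPM in CKD, from 654, 1291, 2570 and 1894 reads. The libraries held between 16658810 and 17532748 reads over all listed entries, and miR-143-3p alone, the dominant smooth muscle miRNA, took 79.8% and 72.5% of them in Sham and 41.1% and 40.8% in CKD. By mean level, the highest member, miR-450a-5p, ranked 182 of 1152 entries and the lowest, miR-450b-5p, ranked 452. CPM were not divided by length, since the members are 21 to 24 nucleotides long and a read covers the whole miRNA, and adaptor ligation is known to favour some sequences, so levels of different members are compared with that limit. In whole aorta, fewer cells that make these miRNAs and less miRNA per cell cannot be told apart.

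Levels within the cluster fell into a high and a low set in every library. miR-450a-5p, miR-322-5p, miR-322-3p and miR-351-5p had means of 15.7, 12.3, 14.0 and 11.6 CPM in Sham, and their ranges over the Sham libraries overlapped from neighbour to neighbour. miR-542-3p, miR-503-5p and miR-450b-5p had 1.61, 1.05 and 0.610 CPM in Sham, with no overlap between neighbours. In CKD the order was miR-450a-5p (39.2 CPM), miR-322-5p (38.7), miR-322-3p (26.9), miR-351-5p (16.2), miR-542-3p (3.60), miR-503-5p (3.58) and miR-450b-5p (1.93). The ranges of miR-450a-5p and miR-322-5p overlapped in CKD, as did those of miR-542-3p and miR-503-5p, and the other neighbours did not. The order of the group means therefore changed in 1 respect: miR-322-5p stood below miR-322-3p in both Sham libraries and above it in both CKD libraries. Single libraries varied further, with miR-351-5p at rank 2 in Sham 1 and rank 4 in Sham 2, CKD 1 and CKD 2. Only in CKD 1 was miR-322-5p above miR-450a-5p and miR-503-5p above miR-542-3p.

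**Figure D2:**
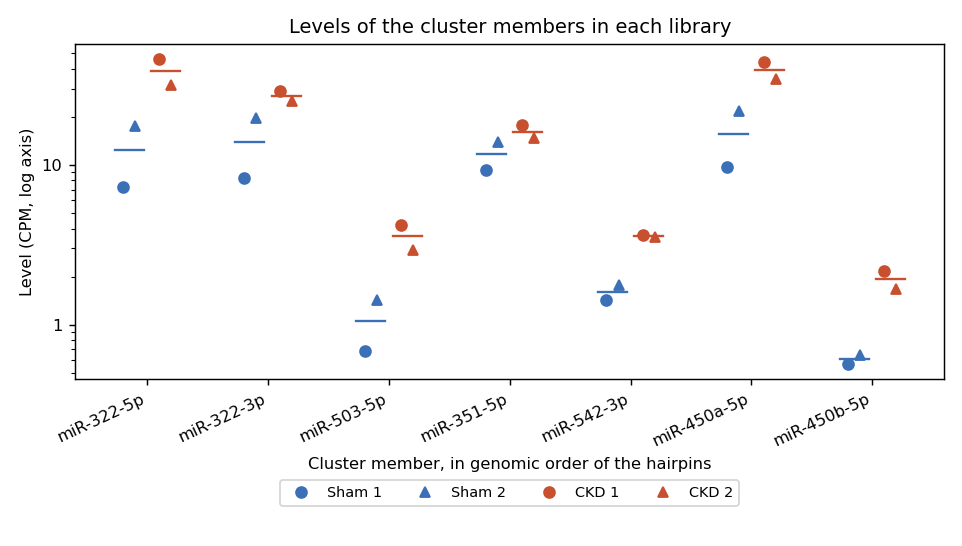
Level of each member (CPM, log axis) in Sham 1 and 2 (blue circle and triangle) and CKD 1 and 2 (red circle and triangle), with bars for the group means (n = 2). For each member both CKD libraries lie above both Sham libraries, with the narrowest gap for miR-351-5p (13.98 CPM in Sham 2 against 14.65 CPM in CKD 2).

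miR-322-5p, the arm with the miR-15/16 seed, stood at 7.25 and 17.42 CPM in Sham, against 45.86 and 31.63 CPM in CKD. Both CKD values were above both Sham values, and Sham 1 was the lowest library. Its mean was 3.14 times as high in CKD on the deposited scale, and the log2(CPM + 1) values differed by 1.67 (SE 0.42, limma adjusted p = 0.0040). miR-322-3p, the opposite arm, had 8.33 and 19.61 CPM in Sham, against 28.80 and 24.97 CPM in CKD, which differed by 1.00 on the deposited log2 scale (SE 0.40, limma adjusted p = 0.034). Here too Sham 1 was the lowest and the groups did not overlap, but the gap between Sham 2 and CKD 2 was narrower than for miR-322-5p.

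miR-503-5p, known as a repressor of cell cycle genes and of endothelial growth, had 0.68 and 1.42 CPM in Sham, against 4.22 and 2.94 CPM in CKD. These values rest on 12, 24, 74 and 49 reads, and the exact Poisson 95% interval of Sham 1 ran from 0.354 to 1.20 CPM. The groups did not overlap, and the deposited log2 difference was 1.17 (SE 0.33, limma adjusted p = 0.0073). Such intervals, here and below, cover counting error only, as PCR reads without molecular identifiers are not independent molecules.

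miR-351-5p, which carries the miR-125 seed, had 9.30 and 13.98 CPM in Sham, against 17.68 and 14.65 CPM in CKD. Its groups came within 1 CPM of each other, and it was the only member that did not pass the test on the deposited scale, where it differed by 0.46 (log2, SE 0.32, limma adjusted p = 0.20). It differed least between Sham and CKD of the 7 members, with a mean 1.39 times as high in CKD.

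In the second group of hairpins, miR-450a-5p had 9.76 and 21.63 CPM in Sham, against 44.20 and 34.28 CPM in CKD, which differed by 1.36 on the deposited log2 scale (SE 0.40, limma adjusted p = 0.0094). miR-542-3p, reported to repress BMP7 and to hold back bone-forming cells, had 1.43 and 1.78 CPM in Sham, against 3.65 and 3.54 CPM in CKD, differing by 0.82 on the deposited log2 scale (SE 0.30, limma adjusted p = 0.023). miR-450b-5p had 0.57 and 0.65 CPM in Sham, against 2.17 and 1.68 CPM in CKD, differing by 0.86 on the deposited log2 scale (SE 0.33, limma adjusted p = 0.029). Since it entered the test only through its CKD libraries, it had to differ, and its p supports no call. Groups did not overlap for any of the 3. miR-450b-5p rests on 10, 11, 38 and 28 reads, and its Poisson 95% intervals reached up to 1.17 CPM in Sham 2 and down to 1.12 CPM in CKD 2, so they overlap.

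On the deposited scale 5 members rose (miR-322-5p, miR-322-3p, miR-503-5p, miR-542-3p and miR-450a-5p), miR-351-5p did not pass, and miR-450b-5p is set apart for the reason given above, although it was under the threshold too. Of all 479 tested entries 82.9% rose by the same test, 1.04% fell and 83.9% passed in either direction. Every member had both CKD libraries above both Sham libraries, miR-450b-5p included, against 91.2% of tested entries, with 1.46% the other way round. Each library sums to 1000000, so a smaller share of miR-143-3p is matched by larger shares of other entries, and the cluster's count lies near that background. The median log2 difference of the 7 members was 1.00 and that of all tested entries 1.34. With a pseudocount of 0.1 these medians were 1.41 and 1.56, and with 10 they were 0.30 and 0.70. Without Sham 1 none of the 7 members passed in limma on the deposited scale (4 at an unadjusted p under 0.05), where 59% of all entries tested did. Without CKD 1 only 1 of the 6 members still tested passed, beside 29.9% of entries, and without CKD 2 only 3 of 7, beside 53.8%. Without Sham 2, 6 passed, beside 78.2% of entries, with miR-351-5p among them (limma adjusted p = 0.049) and miR-450b-5p not. With all 1152 listed entries tested instead of those with a mean of at least 1 CPM, none of the 7 passed (5 at an unadjusted p under 0.05), beside 27.2% of entries.

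Once the shift common to most entries was removed by TMM scaling (a trimmed mean of the ratios between libraries), miR-351-5p fell and no other member passed. Of all tested entries 7.72% passed on this scale, 1.88% higher and 5.85% lower, so 24.3% of the entries that passed were higher, against 98.8% on the deposited scale. TMM-scaled miR-351-5p was 19.4 and 20.1 CPM in Sham, against 9.77 and 8.83 CPM in CKD. The Sham libraries lay close together and so did the CKD libraries, with no overlap, and the log2 values differed by -1.01 (SE 0.13, limma adjusted p = 0.023). Only 20 of the 479 entries had a lower value. The direction of miR-351-5p depends on the scale, since its deposited difference was above 0 and did not pass. The call was lost when any 1 library was left out, at log2 differences from -1.07 to -0.93 and limma adjusted p from 0.13 to 0.17. It was also lost with totals that leave out miR-143-3p (log2 difference -0.77, limma adjusted p = 0.068), while edgeR (quasi-likelihood, read counts recovered from the CPM) gave -1.09 (adjusted p = 0.020).

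The other members lay on both sides of 0 after TMM scaling. miR-322-5p was at 0.17 (SE 0.29), miR-503-5p at 0.16 (SE 0.23) and miR-450b-5p at 0.03 (SE 0.22). miR-450a-5p was at -0.16 (SE 0.24), miR-542-3p at -0.29 (SE 0.17) and miR-322-3p at -0.49 (SE 0.25). Their limma adjusted p ran from 0.30 for miR-322-3p to 0.94 for miR-450b-5p. TMM-scaled values of miR-322-3p (17.4 and 28.2 CPM in Sham, 15.9 and 15.0 in CKD) and of miR-542-3p (2.99 and 2.56 CPM in Sham, 2.02 and 2.13 in CKD) were lower in CKD with no overlap between the groups, as were those of miR-351-5p. Among all tested entries 31.5% were lower in CKD without overlap on this scale. The median log2 difference of the members was -0.16, beside 0.00 for all tested entries.

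**Figure D3:**
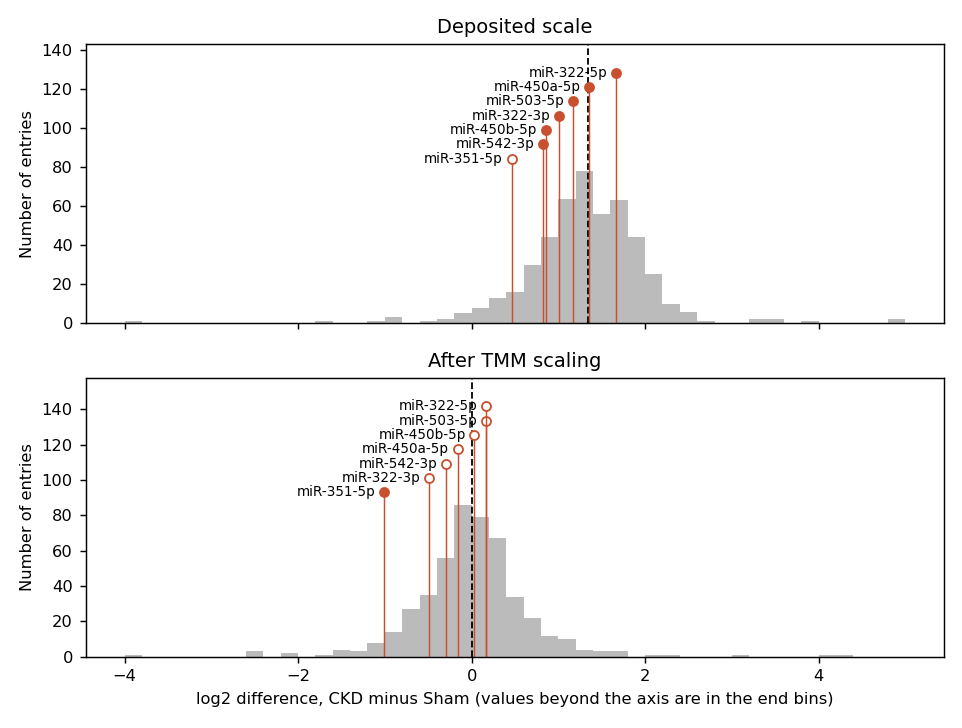
Log2 difference, CKD minus Sham, of the 479 tested entries (grey histogram, dashed line at their median) and of the 7 members (red lines; filled heads passed the limma test), on the deposited scale above and after TMM scaling below. On the deposited scale the members lie between 0.46 and 1.67, with 2 of the 7 above the median of 1.34, and after scaling miR-351-5p stands alone at -1.01. The head of miR-450b-5p is filled in the upper panel, although its p supports no call.

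The summed cluster showed the same dependence on scale. The deposited sum was 56.9 ± 27.7 CPM (SD, n = 2) in Sham and 130 ± 23.3 CPM (SD, n = 2) in CKD, and an exact two-sided permutation test gave p = 0.33, the smallest that 2 libraries against 2 allow. Per 1000000 reads of entries other than miR-143-3p the sum was 185 and 278 in Sham and 249 and 192 in CKD, with the CKD libraries inside the Sham range. Sham 2 held more of the cluster than Sham 1: the ratio of Sham 2 to Sham 1 was 2.40 for miR-322-5p, 2.35 for miR-322-3p, 2.22 for miR-450a-5p and 2.09 for miR-503-5p. It was 1.50 for miR-351-5p, 1.24 for miR-542-3p and 1.14 for miR-450b-5p, beside a median of 1.43 over the tested entries.

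Marker miRNAs of other cell types also differed between libraries. The 3 red cell markers (miR-451a, miR-144-3p and miR-486a-5p) summed to 213 and 810 CPM in Sham, against 1008 and 4754 CPM in CKD, and the 5 leukocyte markers to 82.2 and 229 CPM against 424 and 474 CPM. Like all 7 members, both lists were lowest in Sham 1, whereas the cluster was highest in CKD 1 and both lists in CKD 2. Sham 1 was low for entries in general, with a median ratio of Sham 2 to Sham 1 of 1.43 over the tested entries. The share of entries lowest in Sham 1 was not counted, so this trait singles out neither the cluster nor the lists. Hepatocyte miR-122-5p had 1.43 and 25.5 CPM in Sham, against 161 and 56.0 CPM in CKD, with the same order of libraries as the cluster sum. Both CKD libraries were above both Sham libraries in 91.2% of tested entries, and the share with the full order of the 4 libraries was not counted. After TMM scaling miR-122-5p was at 2.19 (SE 1.19) and did not pass (limma adjusted p = 0.31). The 5 epithelial markers summed to 32.0 and 25.4 CPM against 124 and 78.0 CPM. The 3 markers listed for fibroblast and mesenchyme (miR-199a-3p, miR-214-3p and miR-21a-5p) summed to 7918 and 10960 CPM against 36988 and 39141 CPM. The 4 smooth muscle markers, which define the labelled tissue, made up 833695 and 774989 CPM in Sham, against 485612 and 488708 CPM in CKD. That sum is mostly miR-143-3p, which fell on the deposited scale, while miR-145a-5p and miR-145a-3p rose and miR-143-5p did not pass; after TMM scaling miR-143-3p and miR-145a-5p fell and the other 2 did not pass. On the deposited scale 3 of 3 red cell, 4 of 5 leukocyte, 5 of 5 epithelial and 3 of 3 fibroblast and mesenchyme markers rose, beside 82.9% of all tested entries. None of these markers passed in limma after TMM scaling, where 0 of 3, 1 of 5, 0 of 5 and 3 of 3 had an unadjusted p under 0.05. Of all tested entries 7.72% passed there. No listed marker was at 0 in all 4 libraries, and the part of these cell types in the cluster's values was not tested.

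Ratios between cluster mates do not depend on library scaling. As a share of the cluster sum, miR-351-5p made up 24.9% and 18.3% in Sham and 12.1% and 12.9% in CKD. miR-322-5p went the other way, with 19.4% and 22.8% in Sham and 31.3% and 27.8% in CKD. miR-450a-5p was the steadiest of the 4 high members, with 26.2% and 28.3% in Sham and 30.2% in each CKD library. The share of miR-322-3p was 22.3% and 25.6% in Sham and 19.6% and 22.0% in CKD. For these 4 members the groups did not overlap, and the exact permutation test gave its smallest p, 0.33, each time. The same held for miR-503-5p (1.82% and 1.86% in Sham, 2.88% and 2.59% in CKD), while the shares of miR-542-3p and miR-450b-5p overlapped. Shares of 1 sum have to move against each other. No background was computed for shares of a sum. For ratios of 2 single entries, another measure, 59.6% of all pairs of tested entries had no overlap between the groups.

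The ratio of miR-351-5p to miR-322-5p was 1.28 and 0.803 in Sham and 0.386 and 0.463 in CKD. Its ratio to miR-450a-5p was 0.953 and 0.646 in Sham and 0.400 and 0.427 in CKD, and its ratio to miR-322-3p was 1.12 and 0.713 in Sham and 0.614 and 0.587 in CKD. Against all 6 mates the ratio was lower in each CKD library than in either Sham library. The same held for 89.7% of the other 456 tested entries with reads in every library, so the low position of miR-351-5p was not one against its mates alone. Over all 21 pairs of members, 13 had ratios without overlap between the groups, against 59.6% of all pairs of tested entries, and 7 of the 15 pairs that leave out miR-351-5p did. The ratio of miR-322-5p to miR-503-5p, neighbouring hairpins 295 bases apart from start to start, overlapped between the groups. It was 10.7 and 12.3 in Sham and 10.9 and 10.8 in CKD, but miR-503-5p rests on 12, 24, 74 and 49 reads, too few to show that the ratio was constant. The ratio of miR-503-5p to miR-351-5p, the next hairpin, did not overlap, at 0.073 and 0.10 in Sham and 0.24 and 0.20 in CKD.

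**Figure D4:**
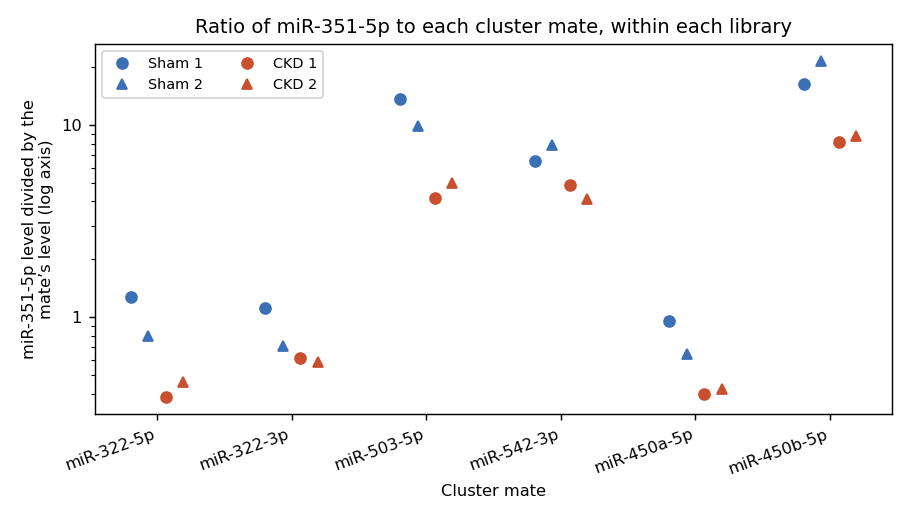
Level of miR-351-5p divided by the level of each cluster mate (log axis) in Sham (blue) and CKD (red), libraries 1 (circle) and 2 (triangle). Every CKD point lies below both Sham points of the same mate, from 0.386 against miR-322-5p in CKD 1 to 21.5 against miR-450b-5p in Sham 2.

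The shares of the miR-322 arms in the reads are also free of scaling, since both arms are counted in the same library. The Mir322 hairpin is shown with the 5p arm (first) and the 3p arm in capitals, because the arms face each other in the stem and their reads do not share sequence.
Mir322: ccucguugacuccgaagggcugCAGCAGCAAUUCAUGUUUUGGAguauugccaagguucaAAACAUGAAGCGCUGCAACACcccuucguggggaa

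The 5p arm gave 127 reads beside 146 of the 3p arm in Sham 1, and 294 beside 331 in Sham 2. In CKD 1 it gave 804 beside 505, and in CKD 2 527 beside 416. The 5p share was therefore 46.5% (Wilson 95% interval 40.7 to 52.4) and 47.0% (43.2 to 51.0) in Sham, and 61.4% (58.8 to 64.0) and 55.9% (52.7 to 59.0) in CKD. The 3p arm led in both Sham libraries and the 5p arm in both CKD libraries, with no overlap of the groups, although the intervals of Sham 1 and Sham 2 reach past 50%. The group means were 46.8% ± 0.368 (SD, n = 2) and 58.7% ± 3.91 (SD, n = 2), 11.9 percentage points apart.

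Arm ratios were fitted as log2((5p + 1)/(3p + 1)) over the 130 hairpins with both arms at a mean of at least 1 CPM. The added 1 CPM makes this value depend on library scale. For miR-322 the difference was 0.69 with 0.1 CPM added and 0.49 with 10 CPM added. With 1 CPM added it was 0.66, higher in CKD (SE 0.18, unadjusted p = 0.013, limma adjusted p = 0.051), which misses the threshold of 0.05. Of these hairpins 24.6% passed it, 60% had ratios without overlap between the groups and 30.8% were higher in CKD without overlap, and 40 of the 130, miR-322 among them, had a difference of this size or larger in either direction. The miR-322 ratio did pass over the 55 hairpins with both arms at a mean of at least 10 CPM (limma adjusted p = 0.013), where 38.2% of hairpins passed. Its difference was between 0.49 and 0.82 over the 9 alternatives tried, with adjusted p from 0.013 to 0.19. The hairpins that passed numbered 0 to 80 over the same alternatives.

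Of the other hairpins, miR-351 gave almost only its 5p arm, miR-542 mostly its 3p arm, and miR-503 and miR-450b had too few reads to tell which arm led. For miR-503 the 5p share was 41.4% and 57.1% in Sham and 57.8% and 47.1% in CKD, which overlap. Its fitted log2 ratio, with 1 CPM added to each arm, differed by 0.12 (SE 0.25, limma adjusted p = 0.75), and by 0.18 with 0.1 CPM added. For miR-450b the 5p share was 50.0% and 44.0% in Sham and 53.5% and 60.9% in CKD, from 20 to 71 reads per library. Its fitted log2 ratio, with 1 CPM added to each arm, differed by 0.33 (SE 0.17, limma adjusted p = 0.21). With 0.1 CPM added it differed by 0.55, so the size depends on the added value. Both arms of miR-450b were below 1 CPM in both Sham libraries. The hairpin entered this fit only through its CKD values, so its p supports no call. The miR-542 hairpin was mostly 3p, with a 5p share of 13.8% and 11.8% in Sham and 4.48% and 3.28% in CKD, and 2 to 4 reads of the 5p arm per library, so its Wilson intervals overlap and no test was made. The miR-351 hairpin was almost all 5p, from 99.0% to 100% in the 4 libraries, and the 0 reads of miR-351-3p in Sham 1 allow a level of up to 0.171 CPM (3 reads).

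**Figure D5:**
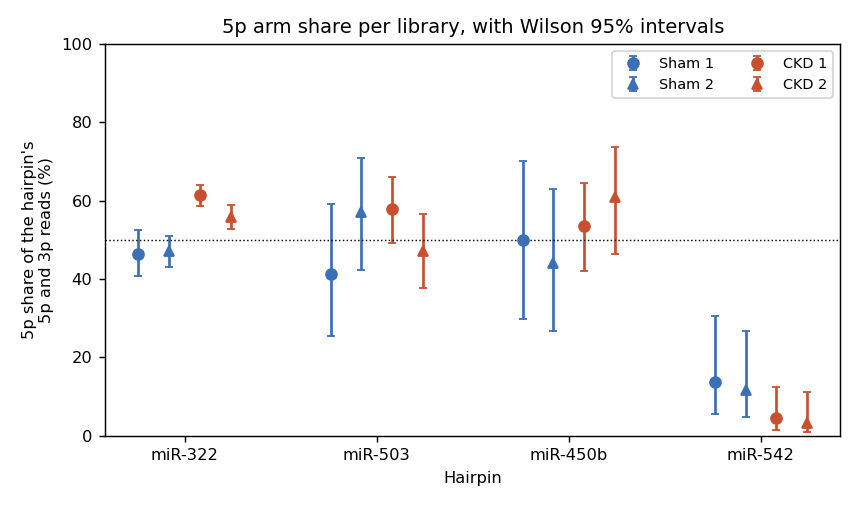
Share of 5p reads among the 5p and 3p reads of 4 hairpins (percent, from 0 to 100), per library, with Wilson 95% intervals. For miR-322 both Sham libraries lie below 50% (46.5% and 47.0%) and both CKD libraries above it (61.4% and 55.9%), while the intervals of miR-503, miR-450b and miR-542 overlap between the groups.

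Of the 6 other listed products of these hairpins, 2 had a mean of at least 1 CPM. miR-503-3p had 0.97 and 1.07 CPM in Sham, against 3.08 and 3.30 CPM in CKD, and rose on the deposited scale (log2 difference 1.05, SE 0.30, limma adjusted p = 0.0080). miR-450b-3p had 0.57 and 0.83 CPM in Sham, against 1.88 and 1.08 CPM in CKD, and did not pass (limma adjusted p = 0.16). It entered the test only through its CKD values, so its p supports no call. Neither miR-503-3p nor miR-450b-3p passed after TMM scaling, at 0.04 and -0.26. miR-351-3p, miR-542-5p, miR-450a-1-3p and miR-450a-2-3p had at most 6 reads in any library, and miR-450a-2-3p had none in Sham, where 3 reads would be 0.171 and 0.178 CPM.

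Members with a family seed were a minor part of the reads that carry it. miR-322-5p held 0.681% and 1.02% of the reads of its seed in Sham and 1.12% and 0.744% in CKD. Of the miR-15/16 family list of 11 names 7 were listed and 5 tested. All 5 rose on the deposited scale, beside 82.9% of all tested entries. None of the 5 passed in limma after TMM scaling (0 at an unadjusted p under 0.05), beside 7.72% of all tested entries, and their median there was -0.01. miR-16-5p, the most abundant of them and a general brake on the cell cycle, had 609 and 981 CPM in Sham, against 2359 and 2527 CPM in CKD, and lay at 0.07 after TMM scaling (SE 0.14).

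miR-351-5p held 0.0790% and 0.0832% of the reads of its seed in Sham, and 0.0452% and 0.0328% in CKD. Its seed mate miR-125b-5p, abundant in smooth muscle and fibroblasts, had 9933 and 14060 CPM in Sham, against 32309 and 38713 CPM in CKD, and lay at 0.00 after TMM scaling (SE 0.16). miR-125a-5p lay at -0.07 (SE 0.10). Neither passed there (limma adjusted p = 0.99 and 0.68), beside -1.01 for miR-351-5p. The share of miR-351-5p among the reads of its seed was lower in each CKD library than in either Sham library, and nearly all reads of that seed came from miR-125b-5p and miR-125a-5p.

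miR-221-3p and miR-222-3p, a pair on the same chromosome that promotes smooth muscle proliferation, served as another X-linked cluster. miR-221-3p was at 0.76 after TMM scaling and passed (limma adjusted p = 0.039), and miR-222-3p was at 0.28 and did not (limma adjusted p = 0.25). The endothelial markers miR-126a-3p and miR-126a-5p, summed, had 2899 and 3411 CPM in Sham, against 9989 and 9767 CPM in CKD, with 0.05 and 0.11 after TMM scaling. The striated muscle list, relevant since muscle is a known source of this cluster, summed to 509 and 622 CPM in Sham, against 1204 and 973 CPM in CKD. Nearly all of that sum was miR-133a-3p, lowest in Sham 1 (500 CPM) and highest in CKD 1 (1189 CPM), so it stands for 1 entry more than for the list. The rest of the list was far lower. miR-1a-3p was lowest in Sham 1 (7.76 CPM) and highest in CKD 2 (16.57 CPM). No library held more than 3.60 CPM of miR-499-5p, miR-208a-3p or miR-208b-3p, and skeletal miR-206-3p stayed at or below 0.30 CPM in every library. On the deposited scale 1 of the 3 tested entries of this list rose, beside 82.9% of all tested entries. After TMM scaling the 3 lay between -0.86 and -0.28, and none passed in limma (2 at an unadjusted p under 0.05). The part of striated muscle in the cluster's values was not tested either.

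The entries whose 4 values ran closest to the summed cluster were miR-455-3p, miR-152-5p, miR-128-3p, miR-28c and miR-31-3p, out of 261 with a mean of at least 10 CPM. Likeness was the Euclidean distance between log2(CPM + 1) values centred on their own mean over the 4 libraries, and it was 0.152 for miR-455-3p and 0.280 for miR-31-3p. miR-455-3p had 50.1 and 89.5 CPM in Sham, against 190 and 150 CPM in CKD. With the same measure miR-450a-5p was the member nearest to the sum (0.108) and miR-351-5p the farthest (0.866). The points share libraries and depth, and 4 libraries allow no more than this description.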

How the data were processed

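The authors used Bowtie and GRCm38, per the submitters' processing notes. Versions, annotation and counting were not given in the sources used here. Deposited values sum to about 1000000 per library and were read as CPM (counts per 1000000). In 3 of the 4 files, names stand above values in a single column, a deposited layout of another kind (unit other), and were paired by position. Dividing by the value of 1 read gave whole numbers for 100% of values (tolerance 0.005 CPM), which recovered the reads. limma 3.58.1 (R 4.3.3) was run with a mean-variance trend on log2(CPM + 1) over all 479 entries with a mean of at least 1 CPM, with the group as the only term, Benjamini-Hochberg adjustment and a threshold of 0.05. That pseudocount understates the differences of low members. The same fit was run after TMM scaling, with factors of 0.479 and 0.696 in Sham and 1.81 and 1.66 in CKD from edgeR 4.0.16, which assumes that most entries did not change. Arm ratios were fitted as log2((5p + 1)/(3p + 1)) without a trend. DESeq2 1.42.0, edgeR on the recovered reads and the settings in the closing section were alternatives. The fits were tested on simulated data. The 2 libraries of a group were not copies of each other, with chi-square values of 515 (Sham) and 367 (CKD) per degree of freedom. The labels give no batch. The miRNAs named are the members, the other products of their hairpins, up to 4 abundant seed mates, the 5 nearest profiles, miR-143-3p and the fixed lists. The members and lists were chosen with earlier results of these data known.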

Additional observations from a re-analysis of the deposited data

How the results depend on the processing

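On the deposited scale 6 members passed, miR-450b-5p included. With the replicate block 4 did, as miR-542-3p (limma adjusted p = 0.070) and miR-450b-5p (0.10) lost their calls, and 352 of all entries. With no filter 0 did (5 at an unadjusted p under 0.05) beside 313 of 1152 entries, with a filter at a mean of 10 CPM 3 of the 4 tested, and with TMM scaling 1, which was lower. Leaving out 1 library gave 0 to 6 members and 137 to 384 of all entries, against 402 with all libraries. All entries past the threshold were 241 of 265 with the filter at 10 CPM and 37 with TMM scaling. The sign changed from the deposited scale to TMM scaling for miR-322-3p (-0.49), miR-351-5p (-1.01), miR-542-3p (-0.29) and miR-450a-5p (-0.16). After TMM scaling, the 1 member past the limma threshold became 0 with no filter, with the replicate block and with totals without miR-143-3p (1 at an unadjusted p under 0.05 each time), and 0 when any library was left out (1 or 2 at an unadjusted p under 0.05). edgeR called 1 of 7, and DESeq2 1 of the 5 members with an adjusted p (not miR-503-5p and miR-450b-5p). All entries past it numbered 37 there, 21 with no filter, 77 with DESeq2, 10 with the replicate block and 0 to 7 when 1 library was left out. Leaving out 1 library moved miR-322-5p between -0.20 (without Sham 1) and 0.52, with -0.04 without CKD 1. It moved miR-503-5p between -0.017 and 0.35, miR-450a-5p between -0.48 and 0.14, and miR-450b-5p between -0.058 and 0.12. miR-450a-5p was at 0.091 with totals without miR-143-3p, a setting that left the median of all entries at 0.22, and miR-450b-5p at -0.018 with upper-quartile scaling. Differences on the deposited scale moved with the pseudocount, from 1.73 at 0.1 to 0.30 at 10 for miR-503-5p, from 1.50 to 0.17 for miR-450b-5p and from 1.12 to 0.23 for miR-542-3p, with no call changed among the members. The miR-322 arm ratio passed with a pseudocount of 10 (0.49), with both arms at 10 CPM (0.66), with a trend on the lower arm (0.66) and with the replicate block (0.66), where 80 of 130, 21 of 55, 35 of 130 and 41 of 130 hairpins passed, and without CKD 2 (0.82, limma adjusted p = 0.032), where 31 of 125 did. Leaving out 1 library gave 0.50 to 0.82 for it, and -0.12 to 0.36 for miR-503 (-0.11 without Sham 1). The summed level, at a log2 ratio of 1.19, was -0.071 per 1000000 reads of entries other than miR-143-3p. The replicate numbers share no stated source, and deviations of same-numbered libraries correlated at 0.0999 across 479 entries. The cause of these changes was not tested. Members under 5 CPM rest on 10 to 74 reads per library, which limits their precision.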
